A study of Mus musculus with 38 samples.

Results

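The enzymes described here are those of glutathione metabolism and antioxidant defence in the livers of mice treated with a hepatocarcinogen. They comprise glutathione S-transferases (GSTs), glutathione peroxidases, peroxiredoxins, superoxide dismutases, catalase, the thioredoxin reductases, the enzymes that make and recycle glutathione, and the NRF2 and KEAP1 regulators with their classic inducible targets. Members were chosen by gene symbol, as probes whose single symbol lies in one of these families. The rule uses no measured value, but it was set with earlier results of these data known. The rule found 73 probes for 53 genes among 36607 probes, of which 26926 carry a single symbol. No single-symbol probe was found for 5 genes that the rule names or matches in RefSeq (Ggt1, Gstp2, Prdx5, Prdx6 and Prdx6b), and these were not analysed here.

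Glutathione is a small thiol peptide whose synthesis begins with glutamate-cysteine ligase, and hepatocytes hold it at high concentration. GSTs attach it to reactive electrophiles, glutathione peroxidases spend it on peroxides, and glutathione reductase restores it with NADPH. The transcription factor NRF2, which KEAP1 holds in check under resting conditions, binds antioxidant response elements near many of these genes and raises their transcription under oxidative or electrophilic stress.

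RNA was measured in 20 male mice on 38 arrays of 2 colours, each array setting a liver against a common reference pooled from 5 wild-type male livers of strain B6129 aged 12 weeks. All mice received the carcinogen N-nitrosodiethylamine (DEN) at 10 micrograms per gram of body weight by intraperitoneal injection at 14 days of age. The groups were knockouts at 3 months, controls at 3 months, knockouts at 5 months and controls at 5 months, with 5 mice in each. Knockouts had the labelled genotype Alb-Cre +/- with Met Fl/Fl and strain 129SV/C57BL6. By this design Met, the receptor of hepatocyte growth factor, is deleted in cells in which the albumin promoter drives Cre, chiefly hepatocytes. Which liver cells kept the gene was not measured here. Controls carried Alb-Cre +/- alone and had the strain label B6129, so strain label and genotype cannot be told apart. The labels give ages of 12 and 20 weeks and the design text times of 3 and 5 months after the dose, which do not match, and the groups are called 3 and 5 months.

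Each value is a log2 ratio of liver over reference, 1 per mouse, with values of a group always in the order of animals 1 to 5. A value of 0 means equal to the reference, and 1 means a doubling. The sources do not say which dye is the numerator. Cy5 was assumed, and if the numerator were Cy3 every direction given here would turn round. Among the members, both dye orientations gave a genotype difference of the same sign for 51 of 73 probes at 3 months (69.9%) and 56 at 5 months (76.7%), against 57.2% and 55.1% of all probes. Array numbers fell into 4 consecutive runs, called A to D, whose meaning the labels do not give. Run A held 2 knockouts and all 5 controls of 5 months, run B the other 3 knockouts of 5 months, run C 2 knockouts and 3 controls of 3 months, and run D 3 knockouts and 2 controls of 3 months, so age and run cannot be told apart. Of the 5-month knockouts, animals 2 and 3 had 1 array each in place of a dye-swapped pair. The Cy5 array of 5-month control 4 correlated at -0.61 to -0.48, over all probes, with the 10 Cy5 arrays of 3 months, while the other 8 such arrays of 5 months had median correlations of 0.04 to 0.48 with them. Its direction is therefore not settled. Counts, family levels and medians, gene lists and leading probes of 5 months are also given without it and with its sign turned. Of the 73 member differences at 5 months, 7 changed sign without it and 13 with it turned. The Met probe was at -0.39 ± 0.38 in knockouts and -0.81 ± 0.18 in controls of 3 months, without overlap, and -0.78 ± 0.45 and -0.73 ± 0.30 in those of 5 months (SD, n = 5 each). It was thus higher in the labelled knockouts of 3 months, by 0.42 ± 0.21 (SE, limma, adjusted p = 0.655), and differed by -0.05 ± 0.21 at 5 months. Whether this probe lies in the deleted part is not given, so it checks neither the genotype nor the dye reading, and groups are named by their labels. A ratio carries no signal strength, so whether a member is expressed in these livers is not shown by it.

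By family median, GST alpha and GST mu stood above the reference in both genotypes at 3 months, and at 5 months they did so in knockouts while the controls lay near it. The median over the 5 GST alpha probes was 0.88 in 3-month knockouts and 1.03 in 3-month controls, then 0.62 in 5-month knockouts and -0.05 in 5-month controls. For the 10 GST mu probes these medians were 1.00, 0.98, 0.70 and 0.13. Single probes could differ from their family: at 3 months Gsta3 probe 1795755_1 averaged -0.94 in knockouts and -1.03 in controls, and Gstm1 probe 1789486_1 -0.13 and -0.55. The medians of the 4 GST pi probes were -0.17, 0.21, -0.68 and -1.08. The 5-month control medians of GST alpha, GST mu and GST pi were -0.01, 0.10 and -1.01 without the Cy5 array of control 4, and -0.03, 0.06 and -0.76 with it turned. Levels of this kind rest on the centring of the deposited values and were not tested.

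**Figure D1:**
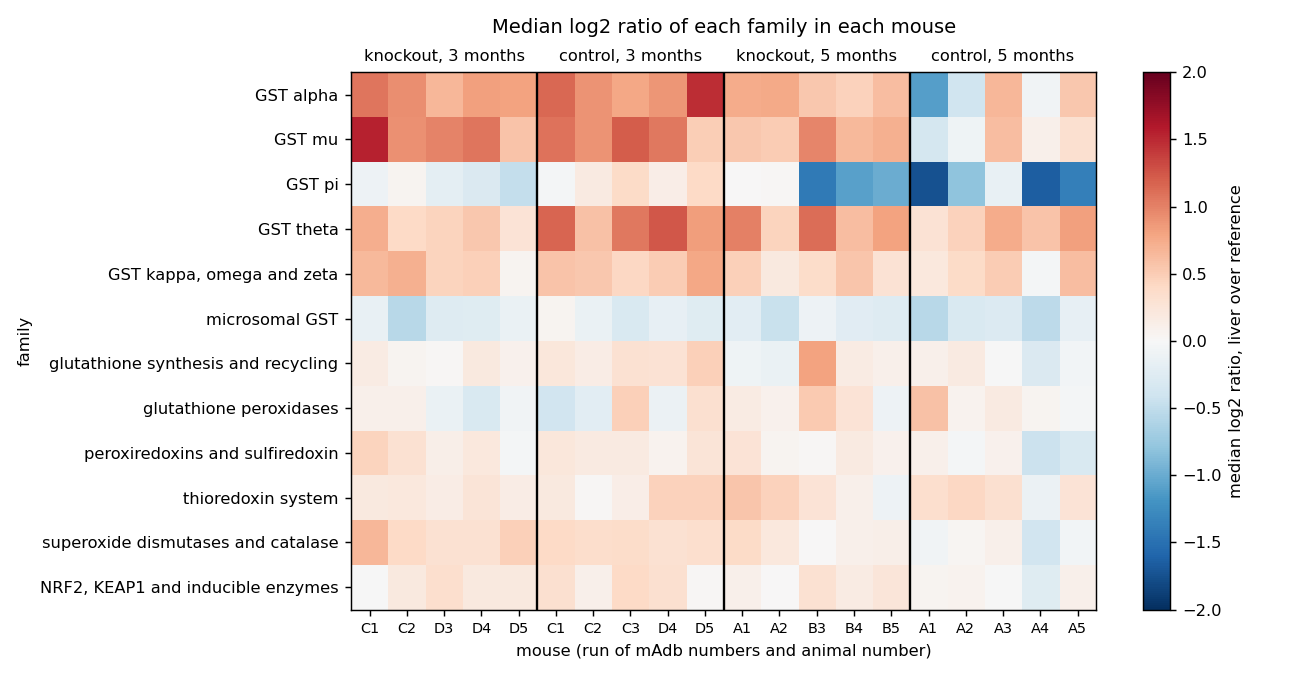
Median log2 ratio, liver over reference, of each family (vertical axis) in each of the 20 mice (horizontal axis, run letter and animal number), with groups divided by black lines and the colour bar in log2 units. GST alpha medians lie between 0.45 and 0.76 in the 5 knockouts of 5 months and between -1.11 and 0.66 in the 5 controls of 5 months, and GST pi is near 0 in the run A knockouts and low (to -1.41) in the run B knockouts.

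No member passed the test in either genotype comparison. At 5 months limma called 0 of 73 member probes after Benjamini-Hochberg adjustment over all probes, with a smallest adjusted p of 0.133, while over all probes it called 0.128% higher and 0.0164% lower. At an unadjusted p under 0.05, 17 members were higher in 5-month knockouts (23.29%, background 7.07%) and 1 was lower (1.37%, background 3.41%). By sign alone, 59 of 73 were higher (80.82%, background 52.3%), and the median difference was 0.18 against 0.01 over all probes. Knockouts and controls did not overlap for 5 probes that were higher in knockouts (6.85%, background 2.59%) and for 0 that were lower (background 1.33%). Without the Cy5 array of control 4, the median was 0.17 against 0.08 over all probes, with 56 members higher by sign (all probes 64.0%). At an unadjusted p under 0.05, 14 were then higher (all probes 6.99%) and 0 lower (1.87%), and the groups did not overlap for 3 higher (2.71%) and 0 lower (0.585%). With its sign turned, the median was 0.14 against 0.03 over all probes, with 52 higher by sign (55.2%), 14 higher (4.00%) and 1 lower (2.36%) at that p, and 3 higher (1.55%) and 0 lower (0.727%) without overlap. The leading probes then differed by 1.05 for Gstm3, 0.90 for Gstp3, 0.75 for Gsta2, 0.72 and 0.66 for Gstm2, 0.70 for Gsta3, 0.50 for Nfe2l2 and 0.37 for Prdx4. Turning it left the family medians at 0.67 for GST alpha and 0.54 for GST mu, and gave 0.08 for GST pi (0.40 as read) and 0.05 for glutathione peroxidases (-0.11 as read). Neither reading called a member.

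At 3 months the picture was smaller and mixed. Limma called 0 of 73 members, with a smallest adjusted p of 0.202, against 0.0164% of all probes called higher and 0.0191% lower. At an unadjusted p under 0.05, 4 members were higher in 3-month knockouts (5.48%, background 2.14%) and 3 were lower (4.11%, background 5.82%). By sign, 31 of 73 were higher (42.47%, background 45.5%), with a median difference of -0.05 against -0.02 over all probes. The groups did not overlap for 1 probe higher in knockouts (background 0.385%) and for 3 lower ones (background 0.929%).

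**Figure D2:**
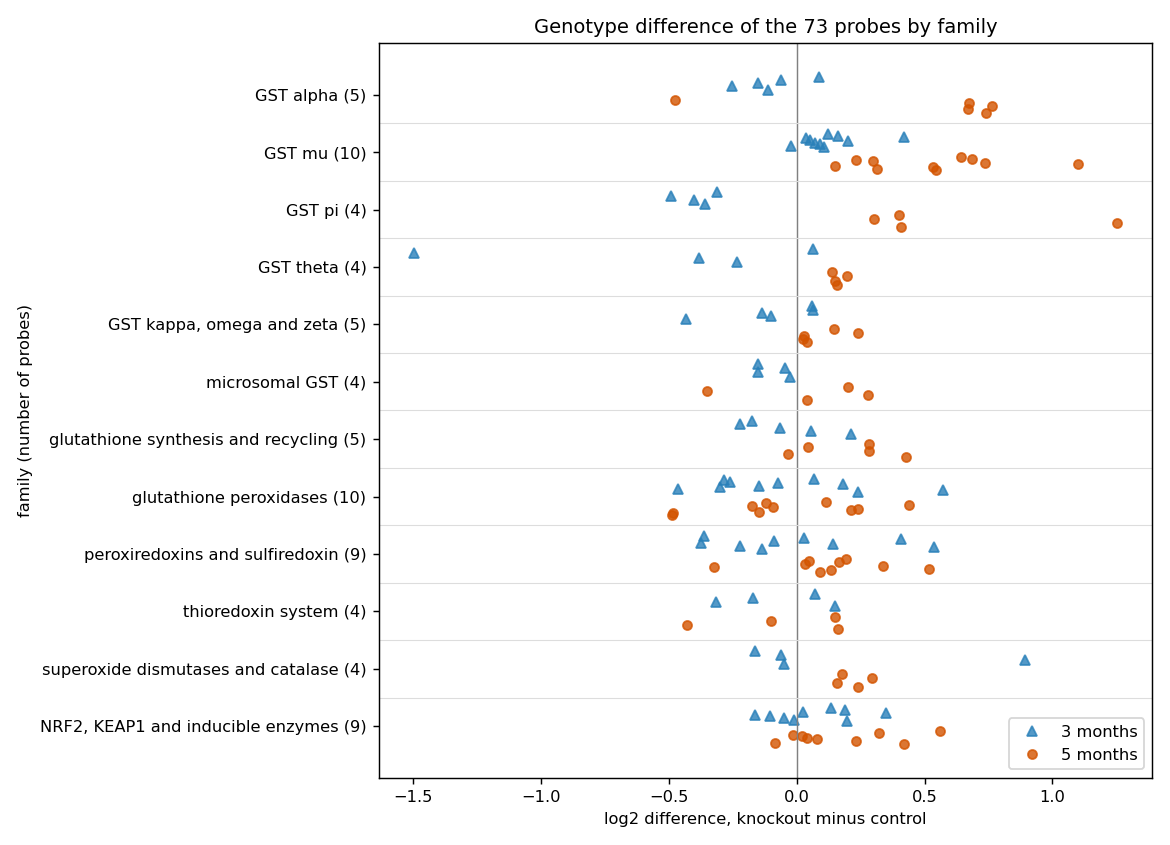
Log2 difference, knockout minus control (horizontal axis), of each of the 73 member probes by family (vertical axis, number of probes in brackets), with triangles for 3 months and circles for 5 months. All 10 GST mu and all 4 GST pi probes lie right of 0 at 5 months, and all 4 GST pi probes lie left of it at 3 months.

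GST mu enzymes conjugate epoxides and quinones and are a large share of the transferases of rodent liver. Gstm2 was read by a pair of probes. Probe 1793658_1, the member with the smallest p at 5 months, had log2 ratios of 0.51, 0.48, 0.84, 0.65 and 0.60 in 5-month knockouts, against -0.31, -0.44, 0.50, -0.20 and 0.09 in 5-month controls. The knockouts lay close together, and control 3 alone among the controls reached their range. The difference was 0.69 ± 0.17 (SE, n = 5 per group), or 1.61-fold (adjusted p = 0.133), and all 5 knockouts exceeded the mean of the controls. Probe 1788013_1 gave 0.74, 0.67, 1.13, 0.60 and 0.72 in 5-month knockouts, against -0.25, -0.10, 0.35, -0.11 and 0.30 in 5-month controls, with no overlap. Its difference was 0.74 ± 0.19, or 1.67-fold (adjusted p = 0.152).

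Gstm3 showed the widest spread among the 5-month controls of this family. Knockouts of 5 months had 0.79, 0.69, 0.94, 0.92 and 0.76, and controls of 5 months had -1.42, -0.79, 0.65, -0.19 and 0.35. The groups did not overlap, although control 3 lay just under knockout 2 and control 1 lay far below the rest. The difference was 1.10 ± 0.33, or 2.14-fold (adjusted p = 0.236), and it was 0.81 without control 1. At 3 months the knockouts had 2.29, 1.38, 1.33, 1.32 and 0.75 and the controls 1.37, 1.06, 1.64, 1.43 and 0.55, which overlap, with a difference of 0.20 ± 0.33 (adjusted p = 0.937).

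The remaining GST mu probes had the same direction at 5 months with smaller differences. Gstm6 gave 0.64 ± 0.25 and 0.55 ± 0.25 on its probes, Gstm7 0.53 ± 0.27, Gstm4 0.31 ± 0.19 and Gstm5 0.15 ± 0.14, and Gstm1 gave 0.30 ± 0.20 and 0.23 ± 0.19. The family median was 0.54 at 5 months, with 10 of 10 probes higher, and 0.10 at 3 months, with 9 of 10 higher. Gstm1 shows that probes of a gene need not track each other. Its probe 1788244_1 averaged 0.94 ± 0.32 in 3-month knockouts and 0.90 ± 0.39 in 3-month controls (SD, n = 5 each), while its probe 1789486_1 averaged -0.13 ± 0.16 and -0.55 ± 0.40, a difference of 0.42 ± 0.19 (adjusted p = 0.578). The GST mu genes are close in sequence, and whether a probe reads transcripts of several of them was not tested, since probe sequences were not used here.

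GST alpha enzymes conjugate lipid peroxidation products and, in mouse, aflatoxin epoxide, for which Gsta3 is the main enzyme. Gsta3 probe 1773530_1 had 0.73, 0.57, 0.43, 0.45 and 0.62 in 5-month knockouts, against -1.11, -0.39, 0.30, -0.12 and 0.43 in 5-month controls. All knockouts lay above all controls, but knockout 3 exceeded control 5 only beyond the second decimal and knockout 4 lay just above it. The difference was 0.74 ± 0.22, or 1.67-fold (adjusted p = 0.247). A further Gsta3 probe, 1795755_1, went the opposite way, with -0.47, -0.63, -0.94, -1.12 and -0.93 in 5-month knockouts, against -0.38, -0.50, -0.34, -0.08 and -0.40 in 5-month controls. Its difference was -0.48 ± 0.19 (adjusted p = 0.391) and -0.21 within run A, so the direction of Gsta3 rests on which probe is read.

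Gsta2 had 0.76, 0.90, 0.60, 0.64 and 0.67 in 5-month knockouts, against -1.16, -0.39, 0.72, -0.07 and 0.66 in 5-month controls. Controls 3 and 5 lay within the knockout range and the other 3 controls lay below it. The difference was 0.76 ± 0.26, or 1.70-fold (adjusted p = 0.310), and it was 0.49 without control 1. Gsta1 gave 0.68 ± 0.25 and Gsta4, the enzyme with high activity toward 4-hydroxynonenal, 0.67 ± 0.27. Gsta1 and Gsta2 differ little in sequence, and whether their probes read each other's transcript was not tested. At 3 months these 4 genes gave differences of -0.25 to -0.06 on the probes that were higher at 5 months.

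**Figure D3:**
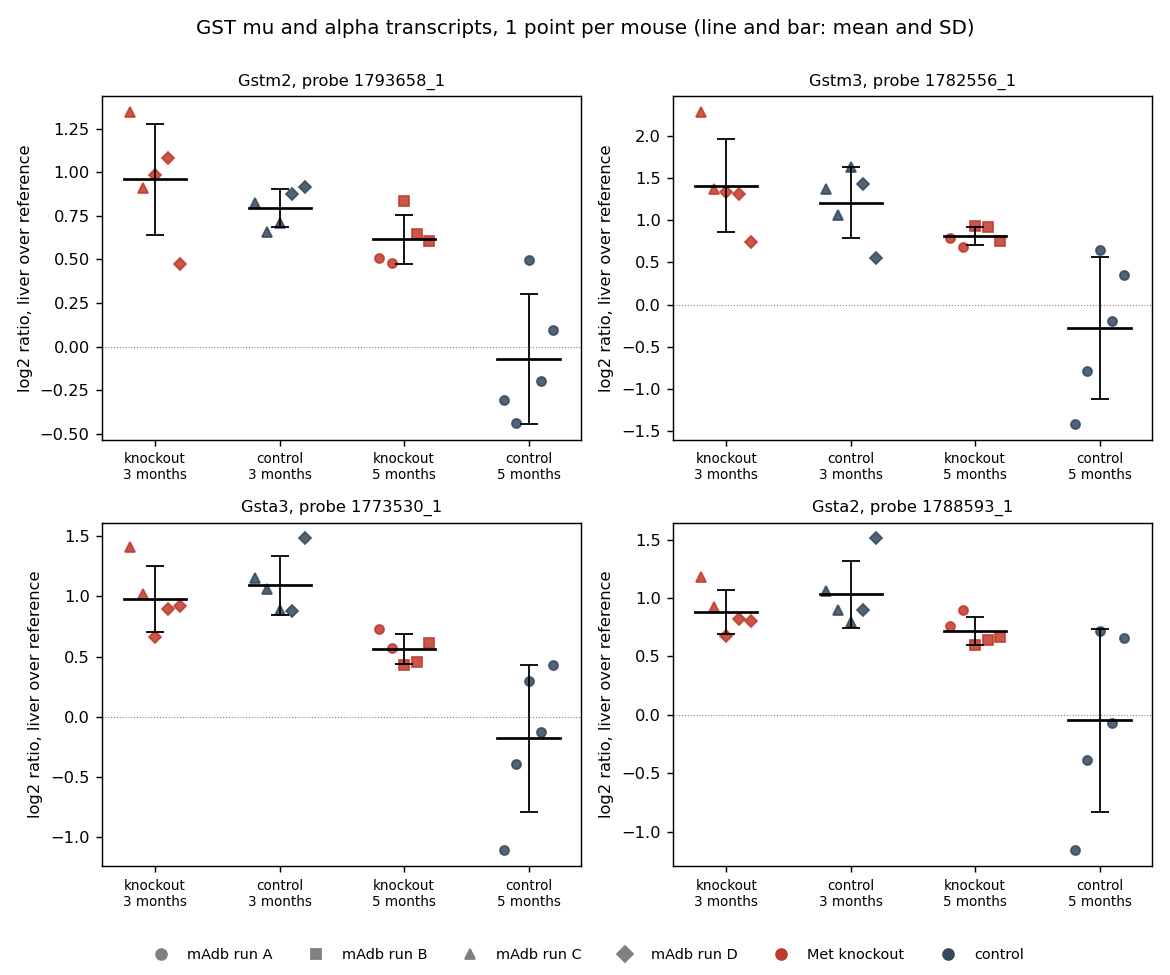
Log2 ratio, liver over reference (vertical axis), of Gstm2, Gstm3, Gsta3 and Gsta2 in each mouse of the 4 groups (horizontal axis), with red for Met knockouts, dark blue for controls, the symbol giving the run, and a line and bar for the group mean and SD (n = 5). The 5-month knockouts sit in a narrow band in each panel, from 0.43 to 0.94 over the 4 panels, and the 5-month controls spread from -1.42 to 0.72.

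The promoters of these genes were read for the core letters of the antioxidant response element, TGACNNNGC, on either strand (GCNNNGTCA on the printed one). The window was the 250 bases before each RefSeq start in GRCm38.p6, and 47 member genes had one. A gene with several starts counted if any of its windows held the letters. The letters occurred for 9 of the 47 (19.15%), against 11.52% of 27025 genes in the same table, and in 10.16% of its 32851 promoters. The 9 genes were Gsta3, Gstm5, Gstm7, Nfe2l2, Gclm, Mgst1, Prdx1, Sod1 and Txnrd1. Sequences are shown for 3 genes that the results turn on, Gsta3, Gstm2 and Gstm3, for the GST mu gene Gstm7 and for Nfe2l2, 5′ to 3′ on the gene's strand, with matching letters in capitals.
Gsta3, chr1:21240335-21240584, plus strand: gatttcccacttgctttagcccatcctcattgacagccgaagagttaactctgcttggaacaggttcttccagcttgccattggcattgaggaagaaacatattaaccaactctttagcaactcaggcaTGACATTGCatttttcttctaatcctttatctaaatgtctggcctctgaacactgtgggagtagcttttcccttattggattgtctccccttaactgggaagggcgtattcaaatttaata
Gstm7, chr3:107931615-107931864, minus strand: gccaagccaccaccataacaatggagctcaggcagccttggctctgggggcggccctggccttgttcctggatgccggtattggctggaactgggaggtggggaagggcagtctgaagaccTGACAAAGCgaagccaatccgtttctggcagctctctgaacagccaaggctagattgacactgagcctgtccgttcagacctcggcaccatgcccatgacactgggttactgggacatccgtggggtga
Nfe2l2, chr2:75704664-75704913, minus strand: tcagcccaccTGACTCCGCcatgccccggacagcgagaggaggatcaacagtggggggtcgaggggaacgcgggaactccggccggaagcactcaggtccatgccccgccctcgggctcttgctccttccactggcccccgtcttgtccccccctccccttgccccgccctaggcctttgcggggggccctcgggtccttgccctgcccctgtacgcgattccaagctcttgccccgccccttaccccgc
Gstm2, chr3:107986421-107986670, minus strand: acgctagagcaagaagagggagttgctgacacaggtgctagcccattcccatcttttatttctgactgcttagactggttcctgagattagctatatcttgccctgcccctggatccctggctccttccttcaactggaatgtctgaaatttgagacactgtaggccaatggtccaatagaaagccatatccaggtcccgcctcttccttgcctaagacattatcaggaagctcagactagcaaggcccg
Gstm3, chr3:107969175-107969424, minus strand: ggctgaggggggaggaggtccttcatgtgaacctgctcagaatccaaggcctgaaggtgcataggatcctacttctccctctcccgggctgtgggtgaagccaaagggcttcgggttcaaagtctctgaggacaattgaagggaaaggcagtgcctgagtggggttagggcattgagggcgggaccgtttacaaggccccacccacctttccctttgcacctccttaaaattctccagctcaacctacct
Counted back from -1, the last base before the start, the match begins at -121 in Gsta3 (TGACATTGC), -129 in Gstm7 (TGACAAAGC) and -240 in Nfe2l2 (TGACTCCGC). Gstm7 has a further RefSeq start, and the window before it (chr3:107931818-107932067, minus strand) holds no match. By these positions the further start lies upstream of the match. The letters thus lie before one start of Gstm7 and downstream of the other, and the gene was counted through the first alone. The letters are not in this window of Gstm2 or Gstm3, the GST mu genes with the largest 5-month differences. A match is a run of letters and says nothing on its own of binding. Only these letters were searched for, so a gene without them may carry another form of the element.

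GST pi enzymes are low in female and high in male mouse liver, and their rat counterpart is a marker of preneoplastic foci. Gstp3 had 0.25, -0.16, 1.25, 0.30 and -0.14 in 5-month knockouts, against -1.05, -0.45, 0.18, -1.57 and -1.88 in 5-month controls. Control 3 lay within the knockout range and the other 4 controls below it. The difference was 1.25 ± 0.32, or 2.38-fold (adjusted p = 0.155), and it was 0.90 with the Cy5 array of control 4 turned. At 3 months the knockouts had 0.29, 0.21, -0.28, -0.45 and 0.24 and the controls 0.11, 0.54, 0.64, 0.27 and 0.47, a difference of -0.40 ± 0.32 (adjusted p = 0.823).

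Gstp1 separated the 5-month knockouts by run. Probe 1763946_1 gave -0.03 and 0.04 in the run A knockouts and -1.02, -1.03 and -1.03 in the run B knockouts, against -1.60, -0.91, -0.16, -1.54 and -0.92 in 5-month controls, all of run A. The run B knockouts lay at the control mean of -1.02, and both run A knockouts lay above all controls. The difference over both runs was 0.41 ± 0.26 (adjusted p = 0.638), and within run A it was 1.03 (adjusted p = 0.262). Probes 1787534_1 and 1789360_1 gave 0.30 ± 0.34 and 0.40 ± 0.33 over both runs, and 1.20 and 1.24 within run A. With the Cy5 array of control 4 turned, the 3 probes gave 0.10, -0.06 and 0.06. All 3 Gstp1 probes were lower in 3-month knockouts, with differences of -0.36 ± 0.26, -0.49 ± 0.34 and -0.31 ± 0.33, and none passed.

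Gclc, the catalytic subunit of glutamate-cysteine ligase and the rate-limiting step of glutathione synthesis, split in the opposite sense. It had -0.08 and -0.14 in the run A knockouts and 0.84, 0.83 and 0.84 in the run B knockouts, against 0.02, 0.29, -0.22, -0.01 and 0.09 in 5-month controls. The run A knockouts lay within the controls and the run B knockouts far above them. The difference of 0.43 ± 0.19 (adjusted p = 0.438) became -0.14 within run A. At 3 months both groups were well above the reference, with 1.06 ± 0.19 in knockouts and 0.85 ± 0.16 in controls (SD, n = 5 each). Over all members, the knockouts of runs A and B did not overlap for 35 of 73 probes (47.95%, background 27.5%). Run A was higher for 19 of these (background 9.42% of all probes) and run B for 16 (background 18.1%). Without or with the turned array of control 4, which enters here only through the dye effect, the number without overlap was 36 (all probes 28.2% and 27.9%). What the run marks was not tested and cannot be told apart from the animals it holds.

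**Figure D4:**
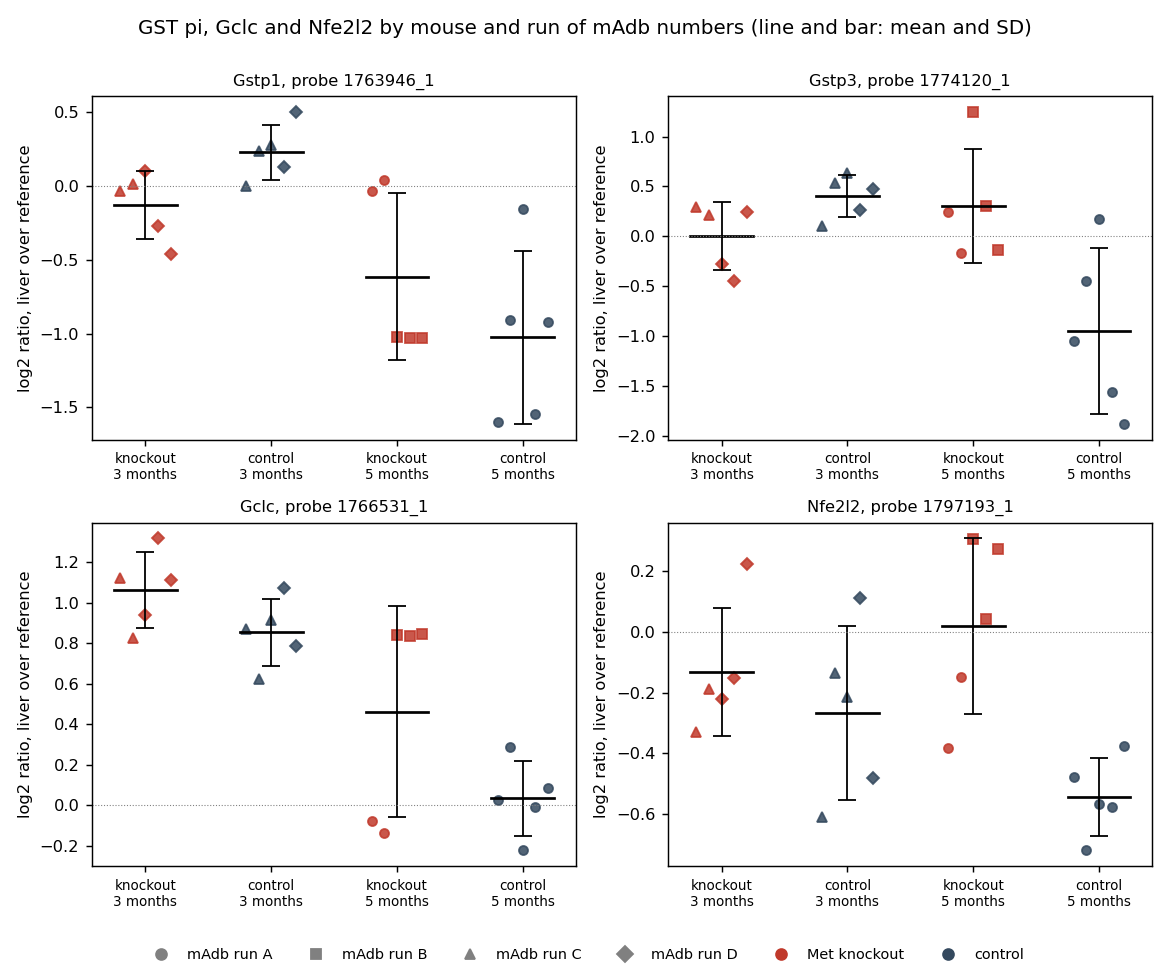
Log2 ratio, liver over reference (vertical axis), of Gstp1, Gstp3, Gclc and Nfe2l2 in each mouse of the 4 groups (horizontal axis), with symbols for the run, red for Met knockouts, dark blue for controls, and a line and bar for the mean and SD (n = 5). In the 5-month knockouts, circles (run A) and squares (run B) stand apart for Gstp1, Gclc and Nfe2l2 and overlap for Gstp3.

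The other enzymes of glutathione synthesis and recycling differed less. Gclm, the modifier subunit of the ligase, gave 0.28 ± 0.15 at 5 months and -0.17 ± 0.15 at 3 months, where its knockouts (-0.10 to 0.14) and controls (0.15 to 0.31) did not overlap. Gss, glutathione synthetase, gave 0.28 ± 0.22 and 0.04 ± 0.15 on its probes at 5 months. Gsr, which reduces oxidised glutathione, gave -0.03 ± 0.18 at 5 months and 0.05 ± 0.18 at 3 months. None of these passed.

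Within GST theta, Gstt4 gave the largest difference and the smallest p of any member at 3 months. Its log2 ratios were -0.07, -1.07, -0.42, -0.44 and -1.02 in 3-month knockouts, against 1.01, -0.04, 1.14, 1.62 and 0.73 in 3-month controls. The groups did not overlap, though control 2 lay just above knockout 1. The difference was -1.50 ± 0.37, or 2.82-fold lower in knockouts (adjusted p = 0.202), with -1.27 within run C and -1.80 within run D. At 5 months knockouts had 0.84, -0.54, 2.35, 0.70 and 0.91 and controls 0.56, 0.51, 0.71, 0.76 and 0.72, a difference of 0.20 ± 0.37. The probe also had a large dye effect of -1.30, and the knockouts at the extremes, 2 and 3, are those with a single array, in which that effect does not cancel. Its removal lowered the value of knockout 2 (Cy3 array) and raised that of knockout 3 (Cy5 array), each by its full size. Whether that removal was right for these arrays was not tested. The spread is estimated over all groups, and without these mice the 3-month difference was -1.50 ± 0.24 (limma, adjusted p = 0.0273). Gstt2 gave 0.14 ± 0.20 at 5 months. Gstt1 and Gstt3, theta enzymes that act on small halogenated compounds, gave 0.16 ± 0.15 and 0.15 ± 0.29 at 5 months and -0.23 ± 0.15 and -0.38 ± 0.29 at 3 months.

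The other transferase classes gave smaller differences. Gsto1, an omega class enzyme with thioltransferase activity, gave the largest of them at 3 months, with -0.05, -0.04, -0.51, -0.36 and -0.42 in knockouts, against 0.01, 0.20, 0.15, 0.00 and 0.43 in controls, without overlap. Its difference was -0.43 ± 0.16 (adjusted p = 0.463), with -0.17 within run C and -0.64 within run D, and 0.04 ± 0.16 at 5 months. Gstk1, the mitochondrial and peroxisomal kappa enzyme, was above the reference in all groups, with means from 0.47 to 1.00 over its probes, and differed by 0.24 ± 0.15 and 0.15 ± 0.13 at 5 months. Mgst1, a membrane-bound transferase of the endoplasmic reticulum, gave 0.28 ± 0.12 at 5 months (adjusted p = 0.419) and -0.15 ± 0.12 at 3 months. The remaining probes, for Gsto2, Gstz1, Mgst2 and Mgst3, lay between -0.35 and 0.20 at 5 months and between -0.15 and -0.03 at 3 months.

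Glutathione peroxidases as a family had members on both sides. At 5 months 4 of 10 probes were higher in knockouts, with a median difference of -0.11, and at 3 months 4 of 10 with the same median. Gpx4, which reduces lipid hydroperoxides in membranes, had 0.72, 0.35, 0.07, 0.29 and 0.12 in 5-month knockouts, against 0.12, 0.06, 0.17, -0.68 and -0.33 in 5-month controls. The ranges overlap, and controls 4 and 5 were the low ones. The difference was 0.44 ± 0.17 (adjusted p = 0.375), and at 3 months it was -0.26 ± 0.17. Gpx1, the abundant cytosolic enzyme, gave 0.24 ± 0.17 at 5 months and was 0.75 ± 0.17 in knockouts and 0.90 ± 0.19 in controls at 3 months (SD, n = 5 each). Gpx2, an epithelial enzyme, lay below the reference in all groups, with means of -1.13 in 3-month knockouts, -1.05 in 3-month controls, -0.85 in 5-month knockouts and -0.68 in 5-month controls. The other 7 probes, for Gpx3, Gpx5, Gpx6, Gpx7 and Gpx8, ran from -0.49 (Gpx5) to 0.21 (Gpx3) at 5 months and from -0.46 (Gpx8) to 0.57 (Gpx6) at 3 months.

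Peroxiredoxins reduce peroxides through a reactive cysteine. Prdx4, the enzyme of the endoplasmic reticulum, had 0.33, 0.20, 0.03, 0.35 and 0.14 in 5-month knockouts, against -0.17, -0.24, 0.02, -0.75 and -0.40 in 5-month controls. The groups did not overlap, with control 3 just under knockout 3. The difference was 0.52 ± 0.17, or 1.43-fold (adjusted p = 0.283), and -0.22 ± 0.17 at 3 months. Prdx1, the major cytosolic form, gave 0.34 ± 0.17 at 5 months (adjusted p = 0.521) and -0.37 ± 0.17 at 3 months (adjusted p = 0.612). Its 3-month knockouts had 0.44, 0.31, -0.11, 0.03 and -0.04, against 0.56, 0.42, 0.60, 0.39 and 0.51 in 3-month controls. Only knockout 1 reached the control range.

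Prdx2, abundant in red cells, gave discordant probes at 3 months. Probe 1772956_1 had 0.89, 0.34, 0.21, 0.21 and 0.46 in 3-month knockouts, against -0.08, -0.12, 0.12, -0.25 and -0.25 in 3-month controls. The groups did not overlap, and the difference was 0.54 ± 0.17, or 1.45-fold (adjusted p = 0.344), with 0.64 within run C and 0.54 within run D. Probe 1789431_1 gave 0.41 ± 0.17 (adjusted p = 0.541) and probe 1795078_1 gave -0.36 ± 0.20 (adjusted p = 0.713), of which runs C and D gave 0.15 and -0.77. Across the 15 member genes with several probes, the probes shared a direction for 8 at 3 months and 11 at 5 months. The 4 that did not at 5 months were Gsta3, Gpx8, Keap1 and Srxn1. Srxn1, sulfiredoxin, which restores overoxidised peroxiredoxins, gave -0.32, 0.03 and 0.05 at 5 months. Prdx3, the mitochondrial peroxiredoxin, gave 0.09 ± 0.12 at 5 months and -0.14 ± 0.12 at 3 months.

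Among the enzymes that remove superoxide and hydrogen peroxide, the cytosolic Sod1 gave 0.18 ± 0.12, the mitochondrial Sod2 0.30 ± 0.14 and the peroxisomal catalase Cat 0.24 ± 0.11 at 5 months, with adjusted p from 0.451 to 0.678. At 3 months they gave -0.16, -0.06 and -0.05. Sod3, the extracellular enzyme, had 0.67, 0.26, 0.33, 0.46 and 0.58 in 3-month knockouts, against 0.16, -2.31, 0.22, 0.34 and -0.59 in 3-month controls. Control 2 lay far below all other mice of that age. The difference was 0.89 ± 0.35, or 1.86-fold (adjusted p = 0.493), and it was 0.43 without control 2.

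The thioredoxin system, which hands electrons from NADPH to protein disulfides, showed no common direction. Txnrd1, the cytosolic reductase and an NRF2 target, gave 0.16 ± 0.15 at 5 months and 0.15 ± 0.15 at 3 months. Txn1, cytosolic thioredoxin, gave -0.43 ± 0.37 and -0.32 ± 0.37, with wide spreads of 0.41 and 0.26 (SD) in 5-month knockouts and controls and 0.52 and 1.04 in 3-month knockouts and controls. Txnrd2, the mitochondrial reductase, gave -0.10 ± 0.20 and -0.17 ± 0.20 at 5 and 3 months, and Txnrd3, a form high in testis, gave 0.15 ± 0.10 and 0.07 ± 0.10.

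Nfe2l2, which encodes NRF2, was higher in 5-month knockouts on both of its probes. Probe 1797193_1 had -0.38, -0.15, 0.31, 0.04 and 0.27 in 5-month knockouts, against -0.48, -0.72, -0.57, -0.58 and -0.37 in 5-month controls. Knockout 1 lay within the control range and the other 4 above it. The difference was 0.56 ± 0.16, or 1.48-fold (adjusted p = 0.205), and 0.28 within run A. Probe 1768737_1 gave 0.42 ± 0.17 (adjusted p = 0.386), with knockouts from 0.00 to 0.25 and controls from -0.50 to -0.13, which do not overlap. The NRF2 targets Nqo1, a quinone reductase, and Hmox1, haem oxygenase, gave smaller differences, which did not pass. Nqo1 gave 0.08 ± 0.19 and 0.02 ± 0.26 at 5 months and Hmox1 0.23 ± 0.14. Keap1 gave -0.09 to 0.32 over its 4 probes at 5 months.

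Whether the genotype difference itself differed between ages was tested with an interaction term. Limma called 0 members and 0 of all probes (0%) in either direction, and the smallest adjusted p among members was 0.450, for Gstp3 (1.65 ± 0.46). At an unadjusted p under 0.05, 13 members had a higher difference at 5 months than at 3 months (17.81%, background 5.61%) and 0 a lower one (background 2.14%). These include Gstt4 (1.69 ± 0.53), Prdx4 (0.74 ± 0.24), Prdx1 (0.71 ± 0.25), Gpx4 (0.70 ± 0.24), Gsta2 (0.91 ± 0.37) and Gsta3 (0.85 ± 0.32). Without the Cy5 array of control 4, 11 were higher (all probes 7.01%) and 0 lower (1.55%), and with it turned 11 (5.19%) and 0 (1.87%).

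Across ages, 43 members were lower at 5 than at 3 months in knockouts (58.9%) and 53 in controls (72.6%), against 34.8% and 38.4% of all probes. The median change was -0.06 in knockouts and -0.33 in controls, against 0.14 and 0.13 over all probes. Group means above 0.5 were found for 22 of 73 probes in 3-month knockouts and 22 in 3-month controls. At 5 months they were found for 22 in knockouts (15.8% of all probes) and 9 in controls (18.2% of all probes). The share of all probes above 0.5 was not counted for 3 months, so no array-wide change stands beside these counts. Without the Cy5 array of control 4, the controls had 58 members lower at 5 months (all probes 43.8%), a median change of -0.30 (all probes 0.06) and 7 probes above 0.5. With it turned they had 56 (37.3%), -0.22 (0.11) and 4. These figures carry no test, since each age lies in runs of its own.

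The animals of the 5-month control group were not alike. The GST alpha medians were 0.75, 0.76, 0.53, 0.45 and 0.62 in 5-month knockouts, against -1.11, -0.39, 0.66, -0.07 and 0.54 in 5-month controls. Control 3 and control 5 lay among the knockouts, and controls 1, 2 and 4 below them. The GST mu medians were 0.55, 0.51, 0.97, 0.64 and 0.71 in 5-month knockouts, against -0.35, -0.09, 0.61, 0.10 and 0.32 in 5-month controls, with the controls in the same order as for GST alpha. Control 4 was at 0.14 for GST alpha and 0.20 for GST mu without its Cy5 array, and at 0.05 and -0.04 with it turned. Within run A, which leaves 2 knockouts, the median difference was 0.83 for GST alpha, 0.29 for GST mu and 1.11 for GST pi, and 46 of 73 members were higher, with a median of 0.23 against -0.06 over all probes. At an unadjusted p under 0.05, 10 members were then higher (all probes 4.48%) and 2 lower (9.57%). By probe, it was 0.56 and 0.67 for Gstm2 (probes 1793658_1 and 1788013_1), 1.02 for Gstm3, 0.83 for Gsta3, 0.88 for Gsta2, 1.00 for Gstp3 and 0.57 for Prdx4.

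The genes whose 20 mouse values ran most like those of Gstm2 probe 1793658_1 included both members and other genes. The other Gstm2 probe had a Pearson r of 0.94, Gstm3 0.91 and both Gstm6 probes 0.88. Gsta3 and Gsta2 had 0.85 and 0.82. Outside the members, the highest were Hsp90aa1, a cytosolic chaperone (0.92), Psen2, a presenilin (0.92), and Cyp2c70, a bile acid hydroxylase (0.89). Hsp90aa1 and Psen2 led without the Cy5 array of control 4 (0.92 and 0.91) and with it turned (0.90 and 0.91), with Ppp1r37 next (0.88 in both). All mice share the reference and fall into the same runs, so these are descriptions with no test.

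Outside the members, 1 gene of the wider pathway lists passed the test. Glutathione supply, the methionine and cysteine route and glutathione breakdown, had 15 of 16 listed genes measured, 0 called and a median difference of 0.07 at 5 months, with Gnmt, glycine N-methyltransferase, at 0.76 ± 0.23 (adjusted p = 0.237) and Cbs, cystathionine beta-synthase, at 0.74 ± 0.19 (adjusted p = 0.171) on the higher of its probes. NADPH supply had 9 of 10 measured, 0 called and a median of 0.14. Of 20 NRF2 targets outside the rule, 0 were called and 17 were higher, with a median of 0.19 (0.15 without the Cy5 array of control 4 and 0.10, with 15 higher, with it turned). All probes had medians of 0.01, 0.08 and 0.03 in these readings, and 52.3% of them were higher by sign as read. Thiol redox partners had 1 of 13 called at 5 months, Glo1, the glyoxalase that uses glutathione as cofactor, at 1.06 ± 0.15 (adjusted p = 0.00790). Its difference was 0.90 (adjusted p = 0.0506) with the Cy5 array of control 4 turned and 0.78 (adjusted p = 0.226) within run A. It was also not called with run as a covariate, with 5-month mice alone, with either dye alone or by the methods' t-test after adjustment (adjusted p from 0.0636 to 0.155). Metal handling had 7 measured and 0 called, and its metallothioneins Mt1 and Mt2 gave -1.51 ± 0.57 and -1.79 ± 0.66 (adjusted p = 0.354 and 0.347). At 3 months 0 genes of these lists were called, and their medians lay between -0.11 and 0.11.

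Cell type markers were read beside these values, and 52.3% of all probes were higher by sign in 5-month knockouts. Of 10 measured Kupffer cell and macrophage markers, 9 were higher in 5-month knockouts, with a median of 0.52 and 0 called, and their mean log2 ratio per mouse ran from -0.07 to 0.42 in 5-month knockouts and from -0.45 to 0.02 in 5-month controls. Hepatocyte markers were higher for 9 of 10, with a median of 0.18, and ran from -0.13 to 0.21 in 5-month knockouts and from -0.47 to 0.14 in 5-month controls. Endothelial markers were higher for 9 of 10, with a median of 0.24, and ran from -0.04 to 0.15 in knockouts and from -0.32 to -0.13 in controls. Pericentral hepatocyte markers, whose zone is also where several GSTs are highest, were higher for 8 of 9, with a median of 0.20, and ran from 0.26 to 0.50 in knockouts and from -0.01 to 0.24 in controls, with Oat, ornithine aminotransferase, called at 1.03 ± 0.20 (adjusted p = 0.0478). The medians of the biliary, stellate, lymphocyte, neutrophil, erythroid and fetal or tumour lists lay between -0.05 and 0.18, with 1 stellate marker called. By sign, 4 of 5 biliary, 5 of 7 stellate, 5 of 5 lymphocyte and 4 of 5 fetal or tumour markers were higher. Neutrophil markers were higher for 0 of 4 and erythroid markers for 1 of 3. Without the Cy5 array of control 4 no marker was called (Oat at 0.98, adjusted p = 0.0602), and the Kupffer, hepatocyte, endothelial and pericentral medians were 0.48, 0.13, 0.24 and 0.14. With it turned none was called (Oat at 1.09, adjusted p = 0.110), and they were 0.36, 0.07, 0.16 and 0.17. At 3 months 0 markers were called, and the hepatocyte, pericentral and Kupffer medians were 0.08, 0.31 and -0.08. In bulk liver, fewer cells of a type and less RNA per cell cannot be told apart, and the part of these markers in the GST values was not tested.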

How the data were processed

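Deposited values are log2 ratios between the dyes of an array. In making them the authors dropped invalid features and scaled arrays by their median signal (50th percentile) within mAdb, per the series' design text. Base 2 follows from the spacing of the values. Background handling and numerator dye are not stated. Array medians, from -0.65 to 0.09, were left as deposited. Genes came from the platform annotation, in which 203 probes carry several symbols and 9478 none. Total RNA came from snap-frozen liver, per the labels' protocols.

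Ratios were signed as liver over reference. For each probe, a dye effect (taken from the 18 mice measured both ways) was removed, then a mouse's arrays were averaged. For the 2 mice with 1 array that effect does not cancel. Limma 3.58.1 (lmFit and eBayes, R 4.3.3) was fitted to all 36607 probes and 20 mice with 1 mean per group, and p-values were Benjamini-Hochberg adjusted over all probes at a threshold of 0.05. The limma fit alone was also run on simulated independent normal values, 1 per mouse, for the 5-month contrast. It recovered 57% of 100 probes changed by log2 1 and 97% of 100 changed by log2 2, with 6 false calls. Dye effects, averaging of arrays, runs, mice with 1 array and correlation between probes were not simulated, so recovery in these data may differ. The number of arrays limits the precision, since the ratios hold no signal or depth.

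Members and gene lists were chosen with earlier results of these data known, and no list was tested. Named by rule are the 8 member probes with the smallest p at each age with further probes of their genes, any called probe, a set of well-known genes of each family, and the 3 genes most like the leading probe. Others, such as Gsta1, Gsta4, Gstm4 to Gstm7, Gstt1 to Gstt3, Gstk1, Gpx2, Prdx3, Txnrd2 and Txnrd3, and the wider-pathway genes, were named after their values were seen. Replicate numbers were not used to pair animals. Deviations of same-numbered mice correlated at -0.07 to 0.11 at 3 months and -0.18 to 0.17 at 5 months. Such values show little shared deviation but cannot exclude that these mice were paired. Alternatives covered centring, quantile normalisation, fits by age, the methods' t-test, run, replicate block, dye, single arrays and each mouse. Promoter sequences are RefSeq's (GRCm38.p6).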

Additional observations from a re-analysis of the deposited data

Results flagged for a closer look

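Within groups of 5 mice, 7 values of 35 member probes lay apart from the rest of their group, by Dixon's criterion on the gap to the nearest mouse. The criterion flags about 1 in 20 groups of independent normal values, and 140 groups were looked at. These groups share mice, and some of the probes were chosen by their p, so that rate need not hold here. How many of the 7 arose by chance was not tested. In 5-month knockout 3, a mouse with a single array, Prdx2 probe 1772956_1 stood at 1.13 (others up to 0.48), Gstm2 probe 1788013_1 at 1.13 (others up to 0.74) and Gss probe 1775169_1 at 0.83 (others up to -0.06). In 5-month knockout 4, Prdx2 probe 1789431_1 was low at 0.35 (others from 0.75). Sod3 stood at 0.32 in 5-month control 2 (others up to -0.02), Gpx4 at 0.72 in 3-month control 5 (others up to 0.15), and Nfe2l2 probe 1768737_1 at 0.58 in 3-month knockout 5 (others up to 0.22). Gstm2 probe 1788013_1 without 5-month knockout 3 gave a genotype difference of 0.65.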

How the results depend on the processing

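No member was called at 5 months in the reported fit, against 5 with quantile normalisation, 7 with arrays as observations and the mouse as a random block, and 0 to 2 on leaving out each mouse, the 2 (Gstm2 and Gstp3) without control 3. Calls also rose over all 36607 probes. They were 53 in the reported fit, 766 with quantile normalisation, 344 with arrays as observations and 105 without control 3. Quantile normalisation called Gstp3 (2.13), Gstm3 (1.77), both Gstm2 probes (1.10 and 1.04) and Nfe2l2 (0.94), and arrays as observations added Prdx4 and Gsta3. At 3 months Gstt4 alone among the members was called, as 1 probe, with the dye effect from the same age, with arrays as observations and without the 2 mice with 1 array. Over all probes these settings called 26, 63 and 23 at 3 months, against 13 in the reported fit. The age interaction gave 1 member call, Gstp3, with arrays as observations, a setting in which its calls over all probes were not counted. Calls moved with how arrays were combined. Of the 8 probes with the smallest p at each age, 1 changed direction: Prdx2 probe 1795078_1 at 3 months (-0.36) was 0.15 within run C and 0.19 as the mean over the probes of Prdx2. At 5 months Gclc (0.43) was -0.14 within run A and Gstp1 probe 1787534_1 (0.30) was -0.06 with the Cy5 array of control 4 turned. Of all 73 members, 15 changed sign within run A. Wider-list calls at 5 months were 1 in the reported fit, 4 with quantile normalisation and with arrays as observations, and 0 with 5-month mice alone, the methods' t-test after adjustment, run as a covariate, within run A, either dye alone, or the sign of one array of control 4 turned. In the settings with 0, at most 8 of all probes were called. At 3 months the wider-list calls were 1 with arrays as observations, where 63 of all probes were called. The replicate block gave 0 calls among members at either age and for the interaction (same-numbered mice were not treated as pairs in the reported fit). The methods' t-test after adjustment also gave 0 members. Median member levels were 0.31 (liver-in-Cy3 arrays alone) and 0.27 (each mouse's median set to 0) in 3-month knockouts, against 0.17 as reported. They were 0.35 (liver-in-Cy5 arrays alone) in 3-month controls against 0.23, 0.12 (Cy3 alone) in 5-month knockouts against 0.28, and -0.080 (Cy3 alone) in 5-month controls against 0.03. The alternatives for levels, and the readings of the Cy5 array of control 4 for levels, gene lists, age shift and overlap, were chosen after seeing the data. The 3-month member median of -0.05 was 0.00088 with quantile normalisation and 0.0066 within run C. The 5-month median of 0.18 was 0.28 with quantile normalisation, where GST alpha was 0.99 (0.68 as reported), GST mu 0.91 (0.54) and GST pi 0.85 (0.40). Within run A the medians of glutathione synthesis and recycling (0.28) and of the NRF2 and KEAP1 group (0.08) became -0.05 and -0.03. The median member difference at 5 months ran from 0.14 to 0.21 on leaving out each mouse.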
